A study of Caenorhabditis elegans with 2 samples.

Results

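Genes of neuropeptide processing and dense core vesicles were examined for binding sites of ZAG-1 in larvae of Caenorhabditis elegans. The group is a named list of 7 genes, egl-3, egl-21, sbt-1, ida-1, hid-1, ric-19 and unc-31, out of 19985 protein-coding genes in the annotation. ZAG-1, a zinc finger homeodomain protein of the ZEB family with a role in neuron differentiation, was studied as an eGFP fusion expressed from an insertion in strain OP83, whose genotype is unc-119(ed3) III; wgIs83. Chromatin immunoprecipitation was carried out on whole L2 larvae, males and females pooled, in 2 biological replicates that form 1 group without a second condition, and the age of the larvae is given only as L2. The tagged protein comes from the insertion, the antibody is given in the labels only by the name of the target, and the chromatin of all tissues was mixed. In chromatin of whole larvae, binding in few cells and weak binding in many cells cannot be told apart.

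Neuropeptides are cut out of larger precursors inside dense core vesicles, which bud from the Golgi, mature as they travel along axons and release their cargo when calcium rises. EGL-3 is the proprotein convertase that cuts the precursors, SBT-1 is the homolog of the chaperone 7B2 that helps the convertase mature, and EGL-21 is the carboxypeptidase that trims the cut ends. IDA-1 is a membrane protein of the vesicle related to the mammalian IA-2 and phogrin, HID-1 acts at the Golgi in vesicle formation, RIC-19 is the homolog of ICA69 and works with the GTPase Rab2 in vesicle maturation, and UNC-31 is the homolog of CAPS, which prepares docked vesicles for fusion. In C. elegans these genes are known for expression throughout the nervous system or in its peptide-releasing cells.

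Of the 7 genes, 5 had at least 1 peak in the list that the authors thresholded by the irreproducible discovery rate (IDR), with 8 such peaks in all. A summit was given to a gene if the gene had the nearest protein-coding 5′ end within 5 kb or if the summit lay in the gene body. By the same assignment 7.66% of all protein-coding genes had an IDR-thresholded peak. Among genes longer than the median of 2026 bp, as 6 of the 7 are, the share was 10.8%. The 7 genes were chosen with earlier results of these data known, so no test of the list was made. The 8 peaks fell in 3 kinds of place. There were 3 in a promoter, taken as the stretch from 500 bp before an annotated 5′ end to 100 bp past it, 3 further upstream and 2 in an intron, with none in a coding exon. An IDR-thresholded peak in the promoter was found for 3 of the 7 genes, against 3.53% of all protein-coding genes. No other protein-coding gene was assigned any of these 8 peaks.

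The window of the weaker egl-3 summit, which held GAGAGA and CACACA, is not shown. Nor is that of the weaker ida-1 intronic summit, which held neither. The sequences around the other 6 of these summits are shown. Each is read from the WBcel235 assembly, the same as ce11, 5′ to 3′ in the direction of the gene, within 100 bp of the summit. The egl-21 window is cut at its annotated 5′ end, so that no sequence of the annotated transcript is included. Where transcription starts was not measured. Capitals mark ATCGAT on either strand, and in the same way the repeat motifs GAGAGA along with CACACA as well as the letters CGTCTC and the letters ACGCAG where found. The E-box CAGGTG would have been marked too, but none of the windows held it.
egl-3, stronger upstream summit (chrV:10174706-10174906, minus strand): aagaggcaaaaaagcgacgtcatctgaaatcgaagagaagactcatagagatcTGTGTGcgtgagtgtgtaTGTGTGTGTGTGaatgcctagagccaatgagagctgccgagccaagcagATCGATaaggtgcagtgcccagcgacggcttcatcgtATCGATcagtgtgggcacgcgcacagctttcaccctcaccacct
egl-21, promoter (chrIV:10481845-10481983, minus strand): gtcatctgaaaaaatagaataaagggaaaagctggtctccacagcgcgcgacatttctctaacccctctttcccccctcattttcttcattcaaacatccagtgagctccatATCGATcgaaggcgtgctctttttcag
sbt-1, promoter (chrV:20828912-20829112, minus strand): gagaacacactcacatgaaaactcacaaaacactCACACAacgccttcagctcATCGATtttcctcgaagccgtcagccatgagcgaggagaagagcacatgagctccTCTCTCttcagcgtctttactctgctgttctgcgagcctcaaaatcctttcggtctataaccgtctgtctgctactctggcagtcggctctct
ida-1, promoter (chrIII:5755315-5755515, plus strand): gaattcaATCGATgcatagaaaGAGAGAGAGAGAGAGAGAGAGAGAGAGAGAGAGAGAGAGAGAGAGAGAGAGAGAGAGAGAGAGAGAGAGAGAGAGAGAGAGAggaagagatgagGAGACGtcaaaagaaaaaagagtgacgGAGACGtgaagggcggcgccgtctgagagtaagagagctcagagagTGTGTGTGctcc
ida-1, stronger intronic summit (chrIII:5758768-5758968, plus strand): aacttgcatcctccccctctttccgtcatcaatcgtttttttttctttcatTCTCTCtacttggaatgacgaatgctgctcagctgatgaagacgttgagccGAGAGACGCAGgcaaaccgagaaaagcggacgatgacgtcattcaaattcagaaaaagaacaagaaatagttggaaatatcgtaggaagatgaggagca
unc-31, upstream summit (chrIV:12771508-12771708, plus strand): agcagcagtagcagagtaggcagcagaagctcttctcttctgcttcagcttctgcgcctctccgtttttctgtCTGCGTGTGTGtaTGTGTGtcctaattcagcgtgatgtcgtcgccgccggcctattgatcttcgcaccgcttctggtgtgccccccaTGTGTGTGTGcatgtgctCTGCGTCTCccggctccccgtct

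The convertase gene egl-3 had the strongest peak of the group, high in both replicates. The gene lies on the minus strand of chromosome V (10169177 to 10173753, 2 annotated 5′ ends). Its strongest peak (10174618 to 10174993) had its summit 1053 bp upstream of the nearest 5′ end, with a score of 115.8, rank 86 of 1803. In replicate 1 the site had a score of 64.3 and rank 127 of 24146, and in replicate 2 a score of 50.7 and rank 55 of 29374. Scores are the authors' own values per peak. They are ranked only within a list, because their scale is not known to be the same in the pooled and replicate lists. At the 8 peaks the IDR-thresholded list held the same scores and ranks as the pooled list. The site thus stood in the strongest 1% of each replicate list, and the replicate summits were 11 bp apart. Its ranks, as shares of their lists (0.526% and 0.187%), differed 2.81-fold, more than the median ratio of 1.85 over the thresholded list.

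A further egl-3 peak (10174820 to 10175195) overlapped the first by 174 bp, and its summit lay 202 bp further upstream. Its score was 31.8, rank 1618, near the lower end of the IDR-thresholded list. Replicate 1 gave it 20.2 and rank 1688, and replicate 2 gave it 17.8 and rank 885. Both replicates therefore called the weaker neighbour as a separate summit. The ncRNA gene C51E3.11 was annotated within 200 bp of each summit, and the ncRNA gene C51E3.12 within 200 bp of the weaker one. The nearest other protein-coding 5′ end, that of the cullin gene cul-5, was 4527 bp from the weaker summit. Having 2 or more IDR-thresholded peaks was recorded for 1.08% of protein-coding genes. By score in the pooled list and in both replicates (3 lists from 2 samples), the strongest peaks most like that of egl-3 among 1505 genes were at Y105C5A.15, egl-9 and wip-1. Their Euclidean distances on the log2 score scale were 0.04, 0.09 and 0.10.

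The carboxypeptidase gene egl-21 and the chaperone gene sbt-1 had a single peak each, both at the promoter. The egl-21 peak (IV, 10481695 to 10482070, gene from 10478442 to 10481844 on the minus strand) had its summit 39 bp upstream of the only annotated 5′ end, with a score of 69.0 and rank 369. It scored 44.7 in replicate 1, rank 360, and 24.7 in replicate 2, rank 464. As shares of each list these ranks are 1.49% and 1.58%, so egl-21 was placed alike in the replicates. The sbt-1 peak (V, 20828824 to 20829199, gene from 20827715 to 20828881 on the minus strand) lay 131 bp upstream of its 5′ end, with a score of 47.9 and rank 788. It scored 31.9 in replicate 1, rank 745, and 12.3 in replicate 2, rank 1741. The sbt-1 site was thus weaker than that of egl-21 in every list, by rank. The 5′ end of num-1 lay 799 bp from the sbt-1 summit, the closest neighbouring start at any of the 8 peaks.

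The vesicle membrane gene ida-1 had the most peaks, 3 in all, and only 0.290% of protein-coding genes had 3 or more. The gene spans 10278 bp on the plus strand of chromosome III (5755539 to 5765816), and its first intron of 11 is 5740 bp long. The strongest of its peaks (5758680 to 5759055) lay in this intron, 3329 bp downstream of the 5′ end, with a score of 63.6 and rank 452. Replicate 1 gave it 43.1 and rank 389, and replicate 2 gave it 20.6 and rank 674. A weaker peak in the same intron (5757605 to 5757980), 1075 bp nearer to the 5′ end, had a score of 30.7 and rank 1712, the lowest of the 8. It scored 21.5 in replicate 1, rank 1538, and 12.1 in replicate 2, rank 1783. The ida-1 intron thus held a pair of sites of unequal strength, in the same order in both replicates.

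The promoter peak of ida-1 (5755227 to 5755602), 124 bp upstream of the 5′ end, had a score of 43.5 and rank 946. It scored 30.4 in replicate 1, rank 808, and 12.8 in replicate 2, rank 1599. Its summit lay inside an uninterrupted run of GA repeats of 84 bp (5755336 to 5755419), as can be seen in the sequence shown. Of the 1803 summit windows 1 held a GA run that long, that of ida-1 itself; the run was singled out after its sequence was seen. How reads align to such a repeat was not tested. The ncRNA gene B0244.14 was annotated within 200 bp of this summit. Another ida-1 site fell just outside the thresholded list. It lay in intron 7 (5763612 to 5763987), with a score of 27.9 and rank 1980 of 16325 in the pooled list, rank 2756 in replicate 1 and rank 1924 in replicate 2.

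The CAPS gene unc-31 had its peak far from its annotated 5′ ends, and the replicates placed it least alike. The gene is the longest of the group, 14488 bp on the plus strand of chromosome IV (12773867 to 12788354), with 19 annotated protein-coding transcripts from 5 different 5′ ends. Its peak (12771420 to 12771795) had its summit 2259 bp upstream, with a score of 69.1 and rank 367. Replicate 1 gave 57.8 and rank 191, and replicate 2 gave 13.2 and rank 1514. The ranks, each as a share of its list, differed 6.52-fold between the replicates, the largest such ratio among the 8 peaks. The summits of the replicates were 87 bp apart, also the largest distance of the 8. The nearest other protein-coding 5′ end, at ZK897.10, was 5796 bp away. At the unc-31 promoter itself a summit of the pooled list, 282 bp upstream, had a score of 20.8 and rank 3138, with rank 2439 in replicate 1 but 24354 in replicate 2.

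The Golgi gene hid-1 and the Rab2 partner gene ric-19 had no IDR-thresholded peak, but each had a promoter summit in the pooled list and in both replicates. The hid-1 summit (peak X, 2488663 to 2489038) lay 197 bp upstream of the 5′ end, with a pooled score of 25.9, rank 2245 of 16325. It scored 15.7 in replicate 1, rank 2541, and 11.3 in replicate 2, rank 2026. The ric-19 summit (peak I, 3781587 to 3781962) lay 85 bp upstream, with a pooled score of 26.6, rank 2152. It scored 14.2 in replicate 1, rank 3046, and 13.9 in replicate 2, rank 1391. Both fell below the lowest score of the IDR-thresholded list, 29.6, and the lowest-scoring member peak inside it, in ida-1, had 30.7. The ric-19 site was among the 1803 strongest of replicate 2 and not of replicate 1, while the hid-1 site was among neither. The start of pmlr-1 lay 343 bp from the ric-19 summit.

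**Figure D1:**
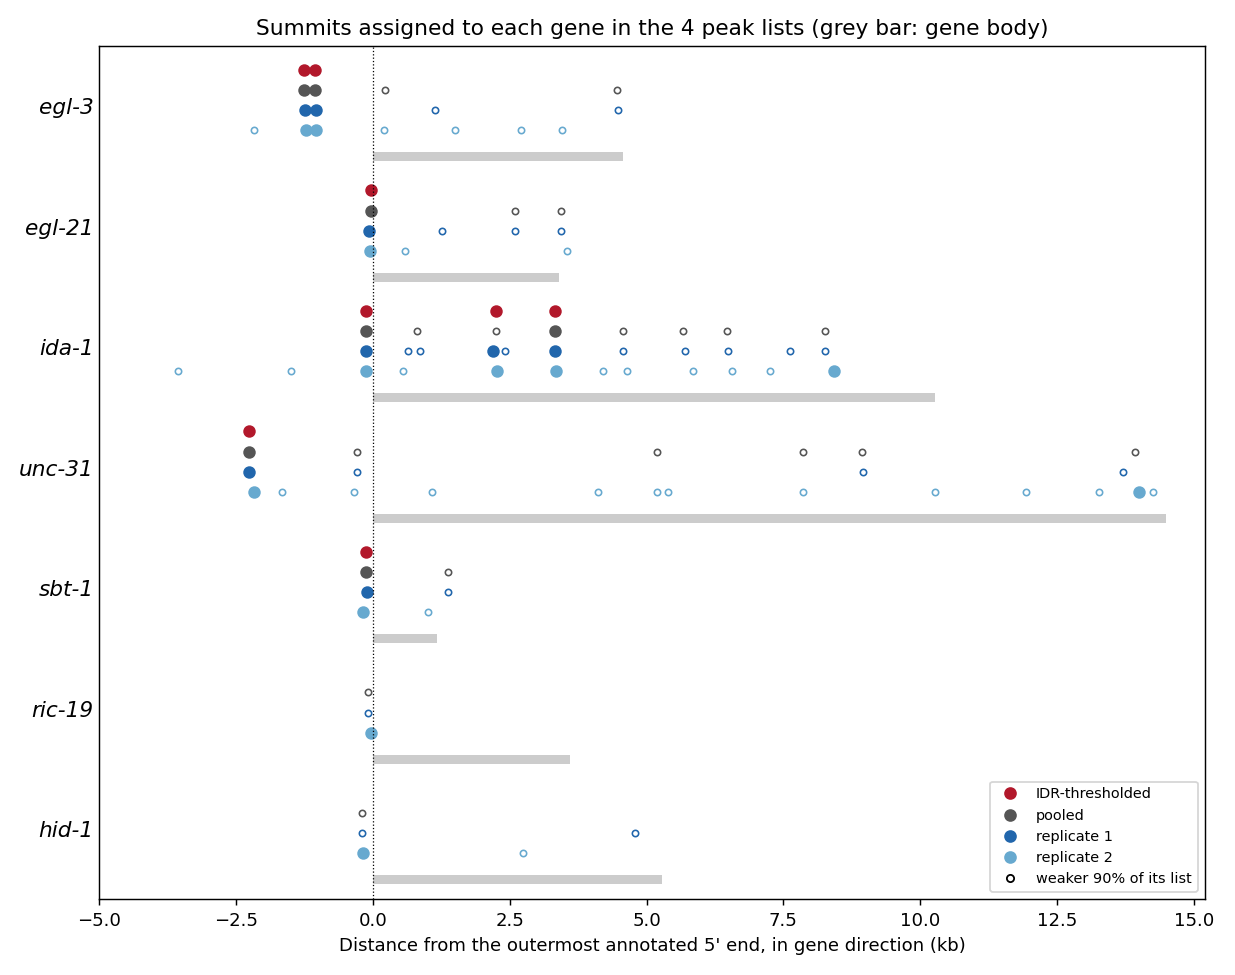
Summits assigned to each of the 7 genes, by distance in kb from the outermost annotated 5′ end (dotted line) in the direction of the gene, with 1 row of points for each of the 4 lists and a grey bar for the gene body. Filled points are IDR-thresholded peaks or the strongest 10% of the other lists, open points the remaining 90%; filled points in all 4 rows stand upstream of egl-3 and unc-31, at the 5′ ends of egl-21, ida-1 and sbt-1, and in the ida-1 intron.

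In the full lists, which hold weak candidates too, summits were assigned to all 7 genes. These counts carry little information, because 44.6% of protein-coding genes had a summit in the pooled list, 58.4% in that of replicate 1 and 66.2% in that of replicate 2. A pooled summit in the promoter was found for 6 of the 7 genes, all except egl-3, against 16.8% of protein-coding genes. The map of summits along the genes shows where they lie.

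The replicates agreed on the position of every peak of the group. All 8 IDR-thresholded peaks had a summit within 200 bp in each replicate, as had 97.8% of all 1803. The thresholded list was made from both replicates, so this overlap is not separate evidence. The replicate summits of the 8 peaks were 11 to 87 bp apart, with a median of 28.5 bp, against a median of 32 bp over the 1764 peaks with both. All 8 were among the 1803 strongest peaks of replicate 1 and also of replicate 2, against 63.1% of the thresholded list. The fold difference between the replicates in rank, taken as a share of the list, ran from 1.05 to 6.52 with a median of 1.77, and the median over all 1764 was 1.85. By score the 8 peaks had a median of 55.7 and the whole list a median of 44.6, and 85 peaks of the list scored above the strongest egl-3 peak.

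**Figure D2:**
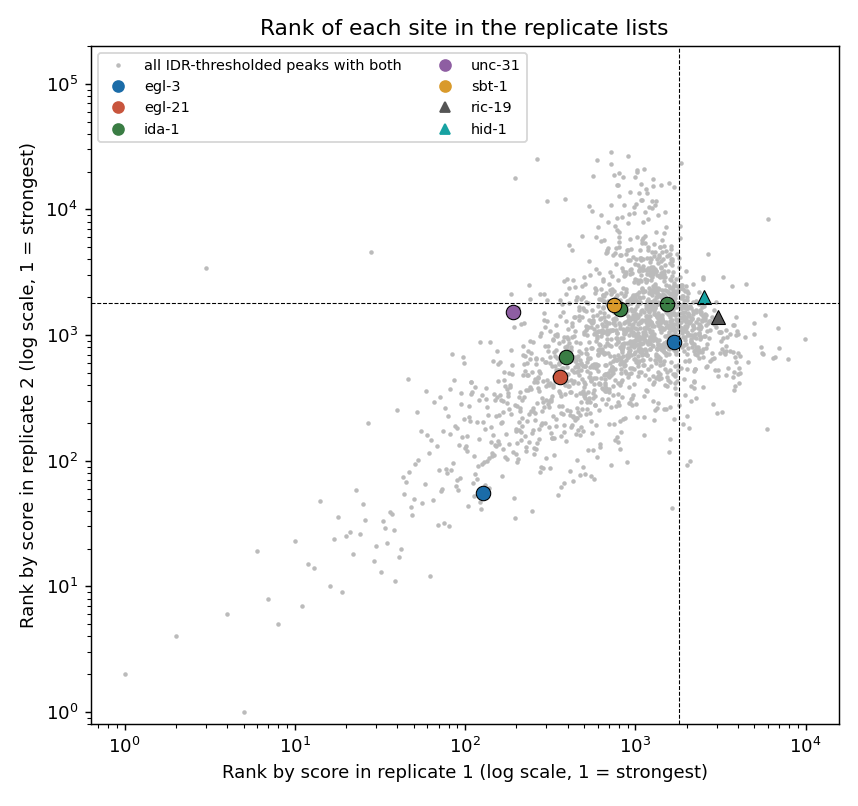
Rank by score in replicate 1 (x axis) and replicate 2 (y axis), both on log scales with 1 as the strongest, for the 1764 peaks of the thresholded list that each replicate also held (grey) and the sites of the 7 genes; circles are IDR-thresholded peaks, triangles the pooled promoter summits of ric-19 and hid-1, dashed lines rank 1803. The strongest egl-3 site lies at 127 and 55, unc-31 lies farthest from the diagonal of the circles at 191 and 1514, and the triangles lie beyond rank 1803 in replicate 1.

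The letters found at the peaks differed from gene to gene. ATCGAT, a palindrome that CUT-class homeodomain proteins can bind, was found within 100 bp of 4 of the 8 summits. It was in 11.0% of the 1803 summit windows of the list and in 6.93% of windows centred 500 bp to one side. These 4 summits were the stronger one of egl-3, with 2 copies (10174744 to 10174749 and 10174781 to 10174786), and the promoter summits of egl-21, sbt-1 and ida-1. The unc-31 window, both intronic windows of ida-1 and the window of the weaker egl-3 summit had none. In egl-21 the copy (10481866 to 10481871) lay 14.5 bp from the summit, between the summit and the 5′ end. In ida-1 (5755322 to 5755327) it lay 90.5 bp away, and the pooled summits of hid-1 and ric-19 had none within 100 bp.

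All motifs were searched on both strands. The E-box CAGGTG, a type of site that ZEB proteins bind, was within 100 bp of 0 of the 8 summits. CAGGTG was in 1.89% of all summit windows and in 5.88% of the windows to one side. Shorter forms of it were not searched, so a count of 0 does not speak to them. Any E-box of the form CANNTG was in 7 of 8 windows, against 56.9% of all summit windows and 52.7% beside them. GAGAGA was in 4 of 8 (49.4% of all summit windows, 10.8% beside them) and CACACA in 5 of 8 (30.3% and 8.71%). CACACA occurred 5 times at the strongest egl-3 summit and 5 times at that of unc-31, some of the copies overlapping each other in both windows. CGTCTC was in 3 of 8 (33.5% and 6.05%), ACGCAG in 2 of 8 (27.3% and 3.77%) and TTAAAA in 0 of 8 (17.1% and 45.8%). In the stronger intronic window of ida-1 the ACGCAG match shares bases with a GAGAGA match and with the CGTCTC match. In the unc-31 window each ACGCAG match shares bases with the CGTCTC match or with a CACACA match. Such matches are not separate. Every CAGGTG is also counted as a CANNTG match. The windows had a median GC content of 48.3%, from 39.3% at the weaker ida-1 intronic summit to 57.2% at unc-31, against a median of 45.8% over the list. A match is a description of the letters and not a binding site, and windows of neighbouring egl-3 summits come from 1 locus.

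Other genes of the pathway were also often assigned a peak. Of 42 listed genes found in the annotation, 27 had an IDR-thresholded peak (64.3%), against 7.66% of protein-coding genes. The list was drawn up with earlier results of these data known, several of its genes belong to the general release machinery of neurons, and no test of it was made. All 5 transport genes had a peak, namely unc-104, sad-1, unc-16, klc-2 and unc-116. The highest score was 85.7 at unc-104, the kinesin that carries vesicles along axons, followed by 60.0 at sad-1, a kinase, and 54.6 at unc-16, an adaptor for transport.

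Priming, fusion and release genes had a peak at 12 of 14. The strongest were at egl-30, a G protein alpha subunit (score 96.3), rab-3, a vesicle GTPase (93.4), and unc-64, syntaxin (81.8). The others were pkc-1, aex-6, snb-1, rbf-1, unc-13, snt-1, cpx-1, tom-1 and ric-4, and pkc-1, a protein kinase C known for its part in peptide release, had 4 peaks. Only unc-18, with a pooled score of 29.5 and rank 1817, and egl-8 had none. Vesicle biogenesis and sorting genes had a peak at 7 of 13. Here unc-108, the Rab2 gene, led with 170.7 and rank 33, followed by rab-5 (69.0) and rab-10 (55.2), and rund-1, cccp-1, vps-50 and tbc-8 completed the group. The Rab2 gene thus ranked above all 7 members, while the gene of its partner RIC-19 had no thresholded peak.

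Among 8 further peptide processing genes 3 had a peak (37.5%). These were pamn-1 (score 60.6) and pgal-1 (51.3), both of peptide amidation, and kpc-1 (43.0), another proprotein convertase. The convertase genes aex-5 and bli-4, the carboxypeptidase genes cpd-1 and cpd-2 and the amidation gene pghm-1 had none. Neither had the neprilysin genes nep-1 and nep-2, which break peptides down. The differences between these roles were not tested.

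**Figure D3:**
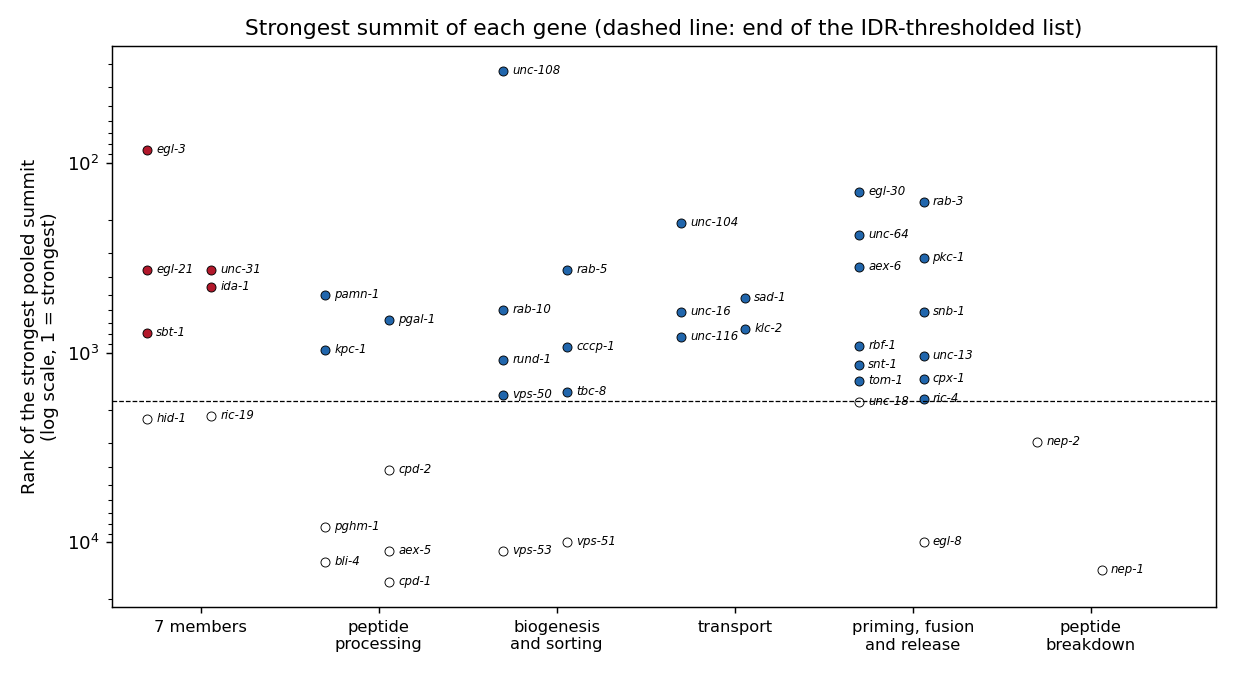
Rank of the strongest pooled summit of each gene (y axis, log scale, 1 as the strongest at the top) for the 7 members (filled red) and for the other genes of the pathway by role (filled blue); open circles are genes without an IDR-thresholded peak, and the dashed line is rank 1803. The 4 listed genes without any pooled summit (eipr-1, vps-52, vps-54 and tbc-2) are not drawn; hid-1, ric-19 and unc-18 lie just below the line and unc-108 lies highest at rank 33.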

How the data were processed

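ChIP-seq peak lists in ce11 were used: 24146 peaks of replicate 1, 29374 of replicate 2, 16325 of the pooled replicates and 1803 past the IDR threshold, each made by the authors with a control alignment or from the other lists, per the deposited file list. The sources used here do not give the program that called the peaks, its cutoffs or the IDR level. The authors deposited a score per peak and a −log10 q-value; the score was ranked within each list. Sequencing depth is unknown from such lists. The ce10 lists were not used here.

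The summit (start plus offset) was assigned with the Ensembl release 115 annotation of WBcel235, using every protein-coding transcript 5′ end, in Python 3.11.15 with numpy 2.4.6; figures used matplotlib 3.10.9. Chromosome lengths of the sequence, RefSeq's WBcel235, held all peaks. Summits within 200 bp were taken as 1 site. Control windows lay 500 bp to 1 side, chosen by a seeded random draw. Assignment and letter search were tested on simulated positions. No group test was made, since there is 1 group. The members and lists were chosen with earlier results of these data known. Named were all members, the listed pathway genes with a peak (scores for at most 3 of each role), nearest other genes and the 3 genes most like the strongest member. Of 43 listed pathway genes, tbc-4 was not found.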

Additional observations from a re-analysis of the deposited data

How the results depend on the processing

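The count of 5 genes with an IDR-thresholded peak stayed at 4 to 6 under all settings except gene bodies alone, where it was 1 (ida-1) with 2 peaks, against 2.27% of protein-coding genes. With a limit of 2 kb (6.75% of protein-coding genes) it was 4, because the unc-31 summit lies further upstream. The higher-scoring 50% of the list kept all 5 genes with 5 peaks, and 16 of the 27 other pathway genes had a peak there, while the share of all protein-coding genes went from 7.66% to 4.0%; with gene bodies alone these were 11. The 1803 strongest peaks of a single replicate gave 5 to 6 genes, 8 to 9 peaks and 22 to 27 other pathway genes, against 7.54% of protein-coding genes with either replicate, and ric-19 was the gene gained without replicate 1. Counting the overlapping egl-3 peaks as 1 site, a choice made after seeing the data, gave 7 peaks. All 8 peaks had both replicates at 100 bp, at 300 bp and by overlap, against 90.9%, 98.9% and 98.9% of all IDR-thresholded peaks. Within 50 bp of the summits CANNTG was in 4 windows and CACACA in 2, and within 150 bp GAGAGA was in 7. ATCGAT was in 3 windows within 50 bp and in 4 within 150 bp. The shares of all summit windows at these widths were not computed, so these motif counts have no background beside them. No paired analysis was possible because there is 1 group. Depth is unknown, so a weak or missing peak at hid-1 or ric-19 does not show that binding is absent.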

Other observations

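Some weaker summits were found in both replicates. Of the 28 summits assigned to the 7 genes in replicate 1, 19 had a replicate 2 summit within 200 bp (67.9%, against 34.7% of all replicate 1 summits), and of 40 in replicate 2, 17 had one in replicate 1 (42.5%, against 28.5%). These shares include the thresholded sites. Without summits within 200 bp of an IDR-thresholded summit, a choice made after seeing the data, they were 10 of 19 in replicate 1 (52.6%, against 29.2% of all such summits) and 9 of 32 in replicate 2 (28.1%, against 23.7%). With all summits, for ida-1 the count was 9 of 11 in replicate 1 and 8 of 12 in replicate 2, while for unc-31 it was 2 of 4 and 2 of 13. Past the end of egl-21, a pooled summit 3440 bp from the 5′ end had a score of 20.0, rank 3128 in replicate 1 and rank 6272 in replicate 2. At the 3′ end of egl-3 a pooled summit had a score of 10.3, rank 12685 of 16325, and was also assigned to C51E3.6. The nearest replicate 1 summit, 20 bp away, had rank 3240. The nearest replicate 2 summit, 181 bp away, had rank 1015 and was not among those assigned to egl-3.

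The number of unc-31 summits differed between the replicates. Replicate 2 held 13 summits assigned to unc-31 and replicate 1 held 4. The strongest inside the gene body, in replicate 2, lay near the 3′ end with a score of 11.4 and rank 1989 (peak 12787692 to 12788047), and replicate 1 had no summit within 200 bp of it. An overlapping replicate 1 peak (12787382 to 12787757) had a score of 7.4 and rank 11604, and the pooled list had a summit between them (12787794) with a score of 14.3 and rank 6100.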
